A study of Mus musculus with 8 samples.

Results

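The 33 genes described here encode the enzymes that build cholesterol and fatty acids, the proteins that control those enzymes, and 3 carriers that move the lipids between cells. They were taken as every gene on a fixed list of names for which a probe set of the Affymetrix Mouse 430 2.0 array named that gene alone, and 32 of them were measured, out of 18194 genes measured in all. The remaining gene, Acat2, was not measured here and enters only the counts of promoter windows. The measured genes were 6 enzymes of the mevalonate pathway, 9 enzymes from squalene to cholesterol, 5 genes of the SREBP control system, 9 enzymes of fatty acid synthesis, elongation and desaturation, and the 3 carriers.

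The samples form 1 group of normal cochlea from 8 CBA/CaJ mice, an inbred strain widely used as a normal-hearing standard, with the ears of each mouse pooled and hybridized to 1 array. Every mouse received the same urethane injection (300 mg/kg) and saline perfusion, and RNA came from the soft parts of the inner ear, which per the labels are spiral ligament, organ of Corti and modiolus. The labels name no treatment that differed between mice and no sex, age or hybridization batch. The comparisons are therefore of each gene across mice, of different probe sets of a gene, and of genes with each other. A mouse number is only a name. Values are MAS5 signals in arbitrary units that the authors scaled to the same trimmed mean on every array, and the number of arrays limits their precision. One probe set's level says nothing about that of another, so each gene is described against its own values.

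Cholesterol is built from acetyl-CoA through mevalonate, isoprenoid diphosphates and squalene, and long-chain fatty acids from the same acetyl-CoA through malonyl-CoA. Both branches are driven by the SREBP transcription factors, which are held in the endoplasmic reticulum with their escort Scap by the Insig proteins while sterol is plentiful and are released to the nucleus when it is short. SREBP2, encoded by Srebf2, acts mainly on sterol genes, and SREBP1, encoded by Srebf1, mainly on fatty acid genes. In the ear these lipids are known as components of the myelin around auditory nerve fibers and of the membranes of hair cells, where cholesterol affects the motor protein prestin.

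The promoters of 4 of the genes are shown because the SREBP system is known to read short DNA elements near the start of transcription, alone or next to CCAAT boxes. The windows run from 250 bases before to 50 bases after the annotated start, 5′ to 3′ on the strand of the gene, and come from RefSeq on GRCm38.p6. Capitals mark each match to the sterol regulatory element TCACNCCAC, the CCAAT box CCAAT or the E-box CACGTG on either strand, so that a CCAAT box on the other strand reads ATTGG. The 4 windows are Hmgcs1 at chr13:119690101-119690400 on the plus strand, Insig1 at chr5:28071162-28071461 on the plus strand, Sc5d at chr9:42264251-42264550 on the minus strand, and Fasn at chr11:120824498-120824797 on the minus strand.
Hmgcs1: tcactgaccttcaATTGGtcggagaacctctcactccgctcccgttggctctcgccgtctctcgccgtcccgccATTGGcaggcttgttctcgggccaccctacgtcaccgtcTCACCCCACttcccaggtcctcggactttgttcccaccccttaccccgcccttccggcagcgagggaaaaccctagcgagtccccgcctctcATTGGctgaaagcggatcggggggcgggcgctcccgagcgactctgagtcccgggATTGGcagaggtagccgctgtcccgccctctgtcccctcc
Insig1: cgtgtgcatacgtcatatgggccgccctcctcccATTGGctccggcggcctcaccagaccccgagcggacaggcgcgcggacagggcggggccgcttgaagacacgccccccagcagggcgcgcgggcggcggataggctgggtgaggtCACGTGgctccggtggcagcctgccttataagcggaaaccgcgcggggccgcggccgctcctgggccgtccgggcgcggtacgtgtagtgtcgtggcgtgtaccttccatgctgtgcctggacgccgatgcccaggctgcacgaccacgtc
Sc5d: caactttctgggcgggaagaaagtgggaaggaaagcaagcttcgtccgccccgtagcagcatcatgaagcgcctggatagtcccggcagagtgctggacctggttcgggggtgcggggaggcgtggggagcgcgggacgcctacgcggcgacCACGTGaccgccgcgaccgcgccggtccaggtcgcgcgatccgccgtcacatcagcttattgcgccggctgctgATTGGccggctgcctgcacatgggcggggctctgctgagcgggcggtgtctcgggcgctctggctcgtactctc
Fasn: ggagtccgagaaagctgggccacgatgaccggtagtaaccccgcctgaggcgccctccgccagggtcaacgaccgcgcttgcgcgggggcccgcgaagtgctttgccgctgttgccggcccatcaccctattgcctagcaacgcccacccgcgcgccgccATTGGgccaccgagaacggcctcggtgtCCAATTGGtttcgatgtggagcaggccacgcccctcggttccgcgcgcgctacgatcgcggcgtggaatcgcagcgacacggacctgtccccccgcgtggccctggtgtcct

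Windows were found for 27 of the 33 listed genes, Acat2 among them, but not for Fdps, Fdft1, Sqle, Scd2, Fads1 and Clu. The sterol regulatory element in this exact form occurred in 1 of the 27, at position -137 of Hmgcs1, against 1.44% of the 27025 genes with windows. A CCAAT box occurred in 20 of the 27 (74.1%), against 41.1% of all genes, and the Hmgcs1 window held 4 of them and the Fasn window 3, of which a pair overlapped. The E-box occurred in 6 of the 27 (22.2%), namely Hsd17b7, Sc5d, Dhcr7, Insig1, Scap and Elovl5, against 8.09% of all genes. A gene was counted if any of its windows matched, and the 27 genes had 38 windows. Counted by window, a CCAAT box occurred in 55.3% of these, against 37.4% of all 32851 windows, and the E-box in 18.4%, against 7.15%. A match is a description of the letters in the window, and a window without one says nothing about binding of a factor.

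All 32 measured genes were above background on all 8 arrays, whereas 57.8% of all genes were (10511 of 18194). Background was set on each array as the 95th percentile of 168 probe sets of receptors of smell and of genes of unrelated organs, and lay between 79.8 and 117 on the arrays. All 32 were also detected with 1 mouse left out, but this adds no support. Each array has its own threshold, and a probe set above it on every array stays so on fewer arrays. Only 7 of the 32 stayed above a stricter threshold, the 99th percentile of the same probe sets. The share of all genes above that threshold is not given here, so the count cannot be called low or high.

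The array of mouse 1 stood apart from the others. In mouse 1, 34.5% of all detected genes were more than 0.3 from their mean over the mice on the log2 scale, against 4.41% to 11.4% in the other mice, and the same held for 11 of the 32 genes. The 3′ to 5′ ratio of the control probe sets was 1.39 to 1.54 for Gapdh, with mouse 1 highest, and 1.86 to 2.23 for actin, with mouse 1 at 2.03. The signal of the 99th percentile of an array ran from 7165 in mouse 7 to 8482 in mouse 1. All pairs of arrays correlated at 0.95 to 0.96 over log2 signals, and no pair was identical. For the correlations described in most detail below, r without mouse 1 is given as well.

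The spread of these genes between mice had about the same median as that of all detected genes. The median SD of log2 signal was 0.17 over the 32 genes and 0.17 over all detected genes, and the median ratio of the highest to the lowest mouse was 1.39 over the 32 genes and 1.43 over all detected genes. Among the 7 of these genes with a mean signal of at least 5000 the median SD was 0.15, against 0.12 for all such genes, and among the 5 between 2000 and 5000 it was 0.19, against 0.13. Between 500 and 2000 the 14 genes had a median SD of 0.16, against 0.17 for all genes in that band, and under 500 the 6 genes had 0.26, against 0.22. No test was made of these medians. The p-values below take mice as units, and the spread between mice includes that of the dissection and the assay. In whole tissue a lower signal from fewer cells and one from less RNA per cell cannot be told apart.

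The mevalonate enzymes, by the probe sets read, varied by between 1.28-fold and 1.93-fold across mice. Hmgcs1, which makes HMG-CoA and so feeds the pathway, had a lowest signal of 7344 in mouse 7, a median of 8388 and a highest of 9406 in mouse 1. The other detected probe sets of Hmgcs1 were lowest in mouse 1. Mvk, the mevalonate kinase, had a lowest signal of 160.2, a median of 173.8 and a highest of 228.8, with mice 3 and 1 above the rest. Pmvk, the next kinase, had 802.9, 983.95 and 1340 as lowest, median and highest signal. The high mouse for Pmvk was again mouse 1, and mouse 7 came second with 1192. Mvd, the decarboxylase that yields isopentenyl diphosphate, had 160.9 in mouse 5, a median of 222.9 and 310.4 in mouse 1. Idi1, the isomerase of isopentenyl diphosphate, had 1349, 1505 and 2193, with mouse 1 above the highest of the others at 1702. Its other detected probe set was lowest in mouse 1. Fdps, which joins these units to farnesyl diphosphate, had 700.9, 749.7 and 941.4, with mice 1, 2 and 7 above the other 5.

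The squalene and sterol enzymes held both the steadiest and the most variable of the 32 genes by the probe sets read. Nsdhl, which removes methyl carbons from sterols, ran from 934.1 through a median of 992.95 to 1062, with an SD of 0.05 on the log2 scale, and 99.02% of all detected genes had a larger SD. Hsd17b7, a ketoreductase of the same step, ran from 180.9 in mouse 1 through a median of 316.0 to 460.7 in mouse 6, with an SD of 0.41, and 3.88% of detected genes had a larger one. This spread and the low mouse 1 rest on the probe set read, since the other detected probe set of Hsd17b7 had an SD of 0.14, was lowest in mouse 4 and had 1265 in mouse 1 within a range of 1174 to 1586. Fdft1, squalene synthase and the entry to the sterol branch, had 838.0 in mouse 8, a median of 1104 and 1649 in mouse 1, with mouse 2 second at 1451. Sqle, the squalene epoxidase that limits the branch, had 514.9 in mouse 8, a median of 715.9 and 786.7 in mouse 2, and the other 7 mice lay at or above 643.6. Lss, which closes the sterol rings, had 324.7 in mouse 8, a median of 437.9 and 538.8 in mouse 1. Mouse 8 was the lowest mouse for all 3 of these enzymes by the probe sets read, whereas both other detected probe sets of Lss were lowest in mouse 6. Msmo1, a methylsterol oxidase, had 1551, 1844 and 2137, and Sc5d, a sterol desaturase, had 642.1, 699.25 and 773.0, both again lowest in mouse 8. Ebp, a sterol isomerase, had 978.3, 1099 and 1300, and Dhcr7, which completes cholesterol in one form of the pathway, had 1130 in mouse 1, a median of 1418 and 1569.

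Among the control genes Srebf1 was the most variable by the probe sets read. Srebf1 had a lowest signal of 2250 in mouse 8, a median of 2737 and a highest of 4012 in mouse 1, and no other mouse exceeded 2851. Scap, the escort of the SREBP proteins, had 853.1 in mouse 8, a median of 950.8 and 1184 in mouse 1, with the other mice at or below 1034. Srebf2 had 1546 in mouse 5, a median of 1938 and 2101 in mouse 6, and mouse 1 with 1772 was within the range of the others. The other detected probe set of Srebf2 had an SD of 0.28, against 0.25 for Srebf1. It was lowest in mouse 1, with 444.6 there and 498.4 to 797.0 in the others. Insig1, itself a known target of the SREBP proteins, had 6424 in mouse 5, a median of 7312 and 7963, and Insig2 had 1534 in mouse 1, a median of 1735 and 1859. Both Insig genes were steady by the probe sets read. Of detected genes, 88.0% had a larger SD than Insig1 and 84.5% a larger one than Insig2. The other detected probe sets of Insig2 had SDs of 0.24 and 0.18, against a median of 0.17 over all detected genes.

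Of the fatty acid genes, Acaca and Fasn shared their high mice. Acaca, the carboxylase that makes malonyl-CoA, had a lowest signal of 346.5 in mouse 4, a median of 452.55 and a highest of 642.3 in mouse 5, with mouse 1 at 620.5. Fasn, the fatty acid synthase, had 1640 in mouse 8, a median of 1976 and 2483 in mouse 5, with mouse 1 at 2471. Mice 5 and 1 were the highest pair for both enzymes. Acly, which supplies their acetyl-CoA from citrate, was steadier by the probe set read, at 3677, 3913 and 4213. Of detected genes, 96.9% had a larger SD than this probe set. The other detected probe sets of Acly had SDs of 0.28 and 0.17. Scd2, a desaturase of saturated chains, had 8279 in mouse 7, a median of 9559 and 10695 in mouse 8. Elovl1, an elongase of very long chains, had 887.6, 994.95 and 1171, Elovl5, an elongase of polyunsaturated chains, had 8021, 8902 and 9685, and Elovl6, which lengthens palmitate, had 372.4, 505.9 and 613.6. Mouse 8 was lowest for Elovl1 and Elovl6 but high for Elovl5, with 9596. By the probe sets read, the desaturases of polyunsaturated fats went opposite ways in mouse 1. The other detected probe sets of Fads2 were highest in mouse 1, as Fads1 was by the probe set read. Fads1 had 3380 in mouse 1 and 2109 to 2717 in the others, and Fads2 had 2794 in mouse 1 and 3357 to 4022 in the others. Over the 8 mice the pair had r = -0.70, and without mouse 1 it had r = -0.02, given as a description.

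By the probe sets read, the carriers differed in the mouse that was highest. Apoe, the apolipoprotein that carries lipid in nervous tissue, had a lowest signal of 4278, a median of 4940 and a highest of 8089 in mouse 1, and the other mice did not exceed 5416. Apod, a lipocalin of glia and connective tissue, had 12947 in mouse 7, a median of 15883 and 17717 in mouse 3. Clu, which encodes clusterin or apolipoprotein J, had 10291 in mouse 7, a median of 11570 and 13561 in mouse 3. By the probe sets read, Apod and Clu had the same lowest and the same highest mouse. Some other bright genes, such as Coch and Slc12a2, were also lowest in mouse 7 and highest in mouse 3. The other detected probe set of Apod was lowest in mouse 1 and highest in mouse 8. All detected probe sets of Clu were lowest in mouse 7, but the brightest was highest in mouse 1.

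**Figure D1:**
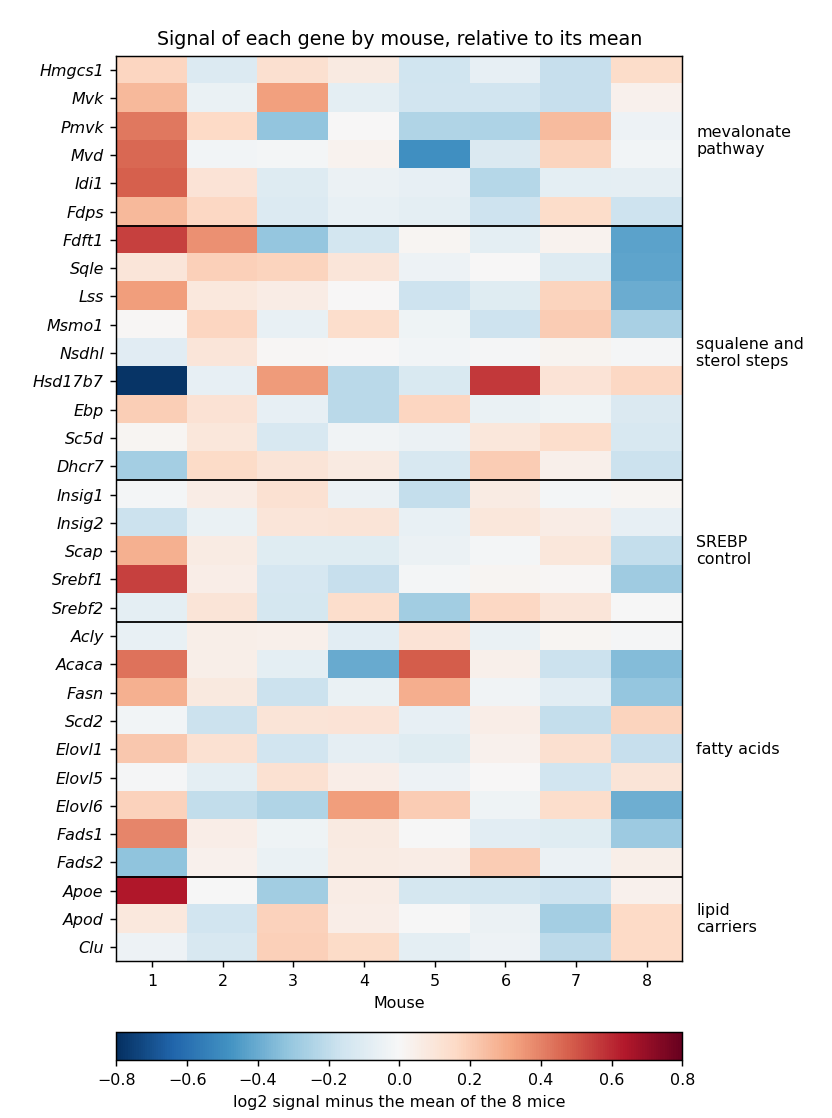
Log2 signal of each of the 32 genes (rows, by role) in each of the 8 mice (columns), as the difference from the gene's mean over the mice, on a color scale from -0.8 to 0.8. Each gene is shown by the probe set read, and other probe sets of Hmgcs1, Hsd17b7 and Lss differ in their highest or lowest mouse. Mouse 1 holds the highest value of 13 genes, among them Hmgcs1, Srebf1 and Apoe, and the lowest of Hsd17b7. Mouse 8 holds the lowest value of 11, among them Fdft1, Sqle and Lss.

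By counts over the probe sets read, 13 of the 32 genes were highest in mouse 1 (40.6%, against 35.1% of all detected genes). In that mouse 5 were lowest (15.6%, against 24.8%). Mouse 8 held the lowest value of 11 of the 32 genes (34.4%, against 19.3% of all detected genes). Mouse 7 held the lowest value of 6 (18.8%, against 7.59%), namely Hmgcs1, Mvk, Scd2, Elovl5, Apod and Clu. All of these but Mvk have mean signals above 5000. In mouse 7 the median log2 deviation was -0.11 over all detected genes of at least 5000 and 0.03 over the dimmer ones. The part of brightness in this count was not tested. A single mouse stood apart by the gap ratio, the gap to the nearest mouse over the whole range, in 3 of the 32 genes, and in 12.8% of all detected genes. Those 3 were Sqle, with mouse 8 low at a ratio of 0.5263 that only just passed the critical value and fell to 0.37 after quantile normalization, and Srebf1 and Apoe, with mouse 1 high at 0.591 and 0.630. Idi1, with mouse 1 high, had 0.522 and did not pass. A share of 3 in 32 is not above that of all genes.

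Different probe sets of a gene were then set against each other across mice. Whether the probe sets of a pair read separate stretches of the transcript was not tested. For 17 of the 32 genes 2 probe sets were above background on every array, and their median r was 0.31, against 0.36 over all 4233 such genes. In 3 of the 17 the pair had an adjusted exact permutation p under 0.05, each with a positive r, against 9.28% of all such genes in either direction. In 6 the pair had a positive r at an unadjusted exact permutation p under 0.05, against 25.2%. The exact permutation test of the 2 brightest of the 4 detected Elovl1 probe sets gave r = 0.97 (p = 0.00025, adjusted p = 0.0157, rho = 0.90 with p = 0.0046, n = 8), and r was 0.97 without the 2 mice farthest from the median. With the Elovl1 probe set read above, these had r = 0.94 and 0.91, but the fourth had r = 0.05 and was highest in mouse 7 and lowest in mouse 2. In Elovl5 the same exact test gave r = 0.96 (p = 9.9e-05, adjusted p = 0.0155, rho = 0.98 with p = 0.0004, n = 8), and 0.90 without 2 mice. In Fdft1 the exact test gave r = 0.87 (p = 0.0035, adjusted p = 0.0433, rho = 0.93 with p = 0.0022, n = 8), and 0.67 without 2 mice. The high signal of Fdft1 in mouse 1 and the low one in mouse 8 were thus present in both of its probe sets, which gave 1814.5 and 1649 in mouse 1 and 1287 and 838.0 in mouse 8. Both probe sets of the Elovl1 pair were of the _x_at kind, and the Elovl5 and Fdft1 pairs also held an _x_at probe set. Both Elovl5 probe sets had mean signals above 5000. After quantile normalization the adjusted exact permutation p was 0.0175 for Elovl1, 0.092 for Elovl5 and 0.053 for Fdft1.

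For other genes the probe sets parted company in mouse 1. Hmgcs1 had 9406 in mouse 1 by its brightest probe set, the highest of the mice, but 3276, 4052 and 2154 by its 3 other detected probe sets, the lowest of the mice in each, where the other mice had 3991 to 4875, 4513 to 5342 and 2722 to 3278. The brightest pair had r = 0.19 over all mice (exact permutation p = 0.66, rho = 0.12 with p = 0.79, n = 8) and r = 0.98 without mice 1 and 7. Idi1 had 2193 in mouse 1 by one probe set, its highest, and 857.6 by the other, its lowest, with the other mice between 983.3 and 1598. The direction of mouse 1 for these enzymes therefore depended on the probe set read. Fads2 showed the same split, since mouse 1 was lowest by its brightest probe set and highest by its other ones. In Fads1 the split fell on mouse 8, lowest at 2109 by the brightest probe set and highest at 189.2 by the dim one, and the pair had r = -0.66 (exact permutation p = 0.0475, adjusted p = 0.173, rho = -0.71 with p = 0.0576, n = 8), against 2.83% of all such genes with a negative r at an unadjusted p under 0.05. Mouse 1 was at opposite ends in 3 of the 17 genes and in 12.2% of the 4233 genes, whereas each other mouse was in 0.496% to 1.75% of them. What sets these probe sets apart was not tested.

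**Figure D2:**
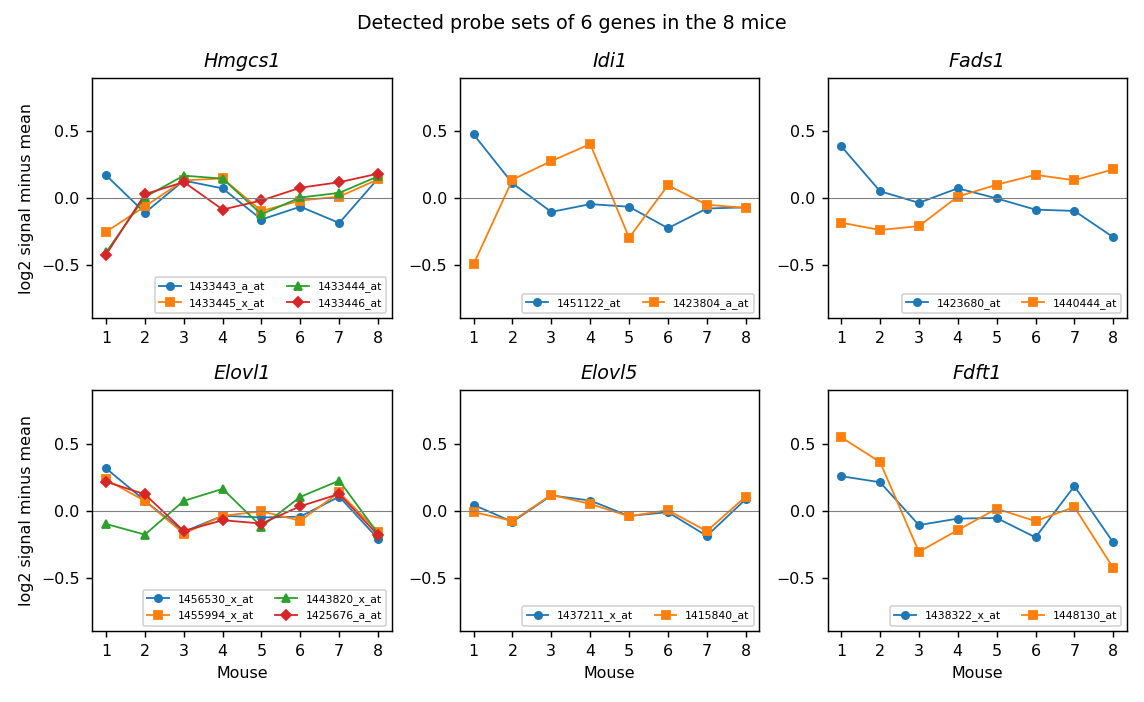
Every detected probe set of 6 genes in the 8 mice, as log2 signal minus the mean of that probe set, with lines that only join the points of a probe set. In mouse 1 the probe sets of Hmgcs1 and of Idi1 lie on opposite sides of 0, while those of Elovl5 and Fdft1 move together.

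Co-variation with single genes of the pathway asked whether the 32 genes rose and fell together from mouse to mouse. With Hmgcs1, 5 genes had a positive r at an unadjusted exact permutation p under 0.05, against 3.08% of all detected genes, and 0 a negative one, against 2.52%. After Benjamini-Hochberg adjustment over all 10510 genes the exact permutation test left 0 of them, and 0.00% of all genes. The 5 were Apod with r = 0.86, Elovl5 with 0.81, Mvk with 0.81, Clu with 0.79 and Scd2 with 0.76. The median r with Hmgcs1 was -0.12 over the 31 other genes and -0.06 over all detected genes.

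Apod had an exact permutation p of 0.0045 (adjusted p = 0.419, rho = 0.83 with p = 0.0154, n = 8), and r was 0.85 without the 2 farthest mice. Mvk, the only other enzyme of the mevalonate pathway among the 5, had an exact permutation p of 0.0117 (adjusted p = 0.555, rho = 0.81 with p = 0.0218, n = 8) and r = 0.70 without 2 mice. The other genes besides Mvk, namely Apod, Clu, Scd2 and Elovl5, have mean signals above 5000, and brightness itself went with r. Of all genes with a mean signal of at least 5000, 35.0% had a positive r with Hmgcs1 at an unadjusted exact p under 0.05 and their median r was 0.58, while of the dimmer genes 0.855% did and their median r was -0.09. After quantile normalization, which gives every array the same distribution of signals, the bright genes had a median r of -0.10. In that setting r with Hmgcs1 was -0.22 for Apod, -0.46 for Elovl5, -0.09 for Clu and -0.08 for Scd2, so that the sign turned for each of these genes, and 0.75 for Mvk. With any of the 3 other detected probe sets of Hmgcs1, Mvk too had a negative r, between -0.35 and -0.053 (exact permutation p from 0.42 to 0.90). Without mouse 1, r of Mvk with these probe sets was positive, between 0.36 and 0.65. With the brightest of these 3, r was -0.92 with Srebf1, -0.90 with Ebp, -0.89 with Fdft1, -0.88 with Acaca and -0.87 with Fasn, where mouse 1 was lowest for Hmgcs1 and among the highest mice for the other genes. Without mouse 1 the 5 values were -0.87, -0.89, -0.79, -0.85 and -0.83 in that order.

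**Figure D3:**
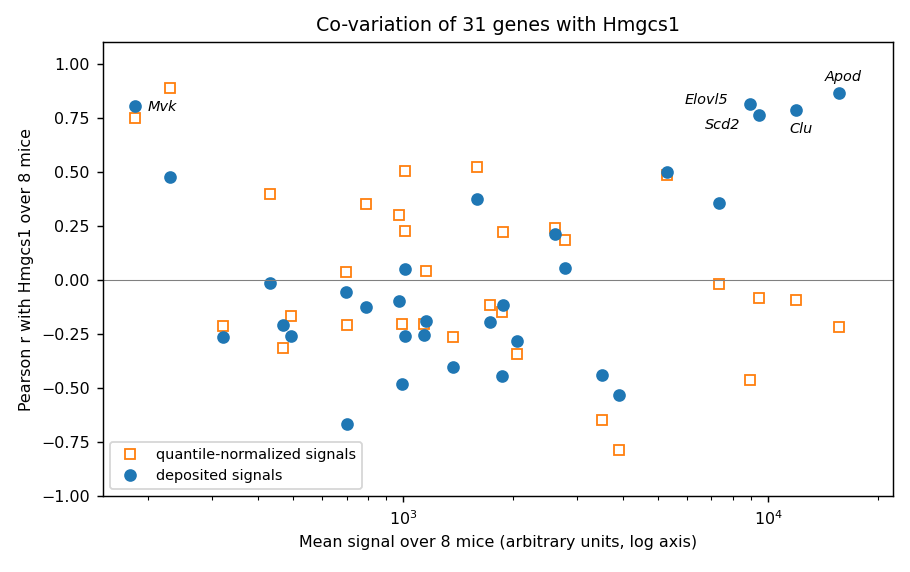
Pearson r with Hmgcs1 over the 8 mice for each of the 31 other genes against the gene's mean signal in arbitrary units (log axis), with deposited signals as filled circles and quantile-normalized signals as open squares. The named bright genes at the right lie between 0.76 and 0.86 with deposited signals and below 0 after quantile normalization.

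With Sqle and with Srebf2, 0 of the 32 genes had an unadjusted exact permutation p under 0.05 in either direction and 0 had an adjusted one. Among all detected genes 3.10% had a positive and 1.67% a negative r with Sqle at that p, and 1.51% and 1.09% with Srebf2. The median r with Sqle was 0.26 over the 31 other genes and 0.09 over all genes, and with Srebf2 it was 0.01 over the 31 genes and 0.00 over all genes. The low value of Sqle in mouse 8 was shared by Fdft1, Msmo1 and, in 1 of its 3 probe sets, Lss, but none of these enzymes passed the test with Sqle over the 8 mice. A p above the threshold does not show that the genes vary independently. The result for Srebf2 also rests on the probe set read. Its detected probe sets had r = 0.065 with each other (exact permutation p = 0.88, n = 8). With the mean of all detected probe sets, Srebf2 had 4 positive and 1 negative r at an unadjusted exact permutation p under 0.05, and 0 adjusted. The shares of all genes in that setting are not given here.

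With Fasn, 5 of the genes had a positive r at an unadjusted exact permutation p under 0.05, against 14.5% of all detected genes, and 0 a negative one, against 10.0%. None passed after adjustment over all genes by that test, in which the lowest adjusted p of the 31 genes was 0.109 and 0.00% of all genes passed. Acaca, the enzyme just before Fasn, had r = 0.88 (exact permutation p = 0.0062, rho = 0.83 with p = 0.0154, n = 8), 0.84 without mouse 1, 0.83 without mouse 5 and 0.57 without both. Ebp had r = 0.83, Fdft1 0.80, Fads1 0.77 and Srebf1 0.75, with exact permutation p-values of 0.0119, 0.0186, 0.0252 and 0.0218 in that order. Acly, which supplies the acetyl-CoA, had r = 0.20, and Elovl6, which takes its product, had 0.62 (exact permutation p = 0.110, n = 8). The share of 5 in 31 was close to that of all genes. Without mouse 5, 10 of the genes had a positive r at that p, and without mouse 1 or mouse 8 only 2 did. The shares of all genes in these sets of mice are not given here.

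With Srebf1, 9 of the genes had a positive r at an unadjusted exact permutation p under 0.05, against 20.6% of all detected genes, and 0 a negative one, against 12.3%. They were Scap, Fdft1, Fads1, Elovl1, Fdps, Fasn, Lss, Ebp and Acaca. After adjustment 2 passed the exact permutation test, against 0.904% of all genes. Scap had r = 0.96 (exact p = 0.00035, adjusted p = 0.0494, rho = 0.90 with p = 0.0046, n = 8) and 0.82 without the 2 farthest mice. Fdft1 had r = 0.90 (exact p = 0.00032, adjusted p = 0.0491, rho = 0.90 with p = 0.0046, n = 8) and 0.77 without them. Without mouse 1, which is highest for all 3 genes, r was 0.91 for Scap and 0.86 for Fdft1. Both adjusted values lay just under the threshold and did not pass with any 1 mouse left out or after quantile normalization.

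Several other relations with Srebf1 rested on mouse 1. Fads1 had r = 0.85 over the 8 mice and 0.49 without mouse 1, and Apoe had 0.74 and -0.37. Idi1 had 0.82 over the 8 mice (exact permutation p = 0.0529, rho = 0.33 with p = 0.43, n = 8) and 0.11 without mouse 1. Elovl1 had 0.84 with mouse 1 and 0.82 without it. Without mouse 1, 4 genes had a positive r with Srebf1 at an unadjusted exact permutation p under 0.05, namely Scap, Fdft1, Elovl1 and Sc5d, and 5 a negative one, namely Hmgcs1, Clu, Scd2, Elovl5 and Apod. Those 5 all have mean signals above 5000, and r ran from -0.87 to -0.79. None passed after adjustment in the exact permutation test of 7 mice. The shares of all genes with such an unadjusted p without mouse 1 are not given here. Hmgcs1 had r = 0.06 with Srebf1 over the 8 mice and -0.87 without mouse 1 (exact permutation p = 0.0179, adjusted p = 0.415). Srebf1 and Srebf2 had r = -0.13 with each other. The mean r over all pairs of the 32 genes was 0.07, against 0.02 over all pairs of detected genes, given as a description.

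**Figure D4:**
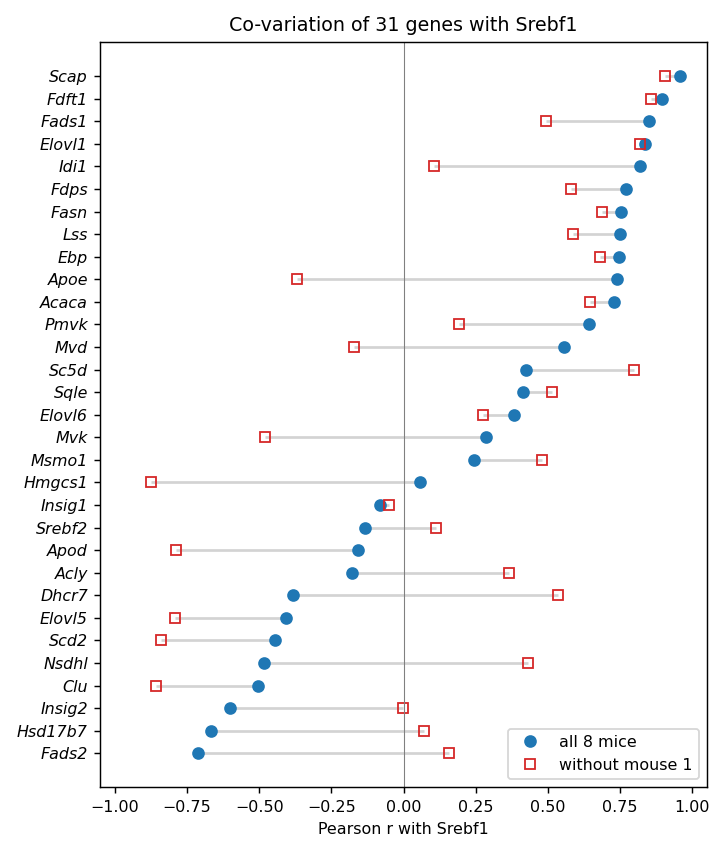
Pearson r of each of the 31 other genes (rows) with Srebf1 over all 8 mice (filled circles) and without mouse 1 (open squares), joined by a line. Scap, Fdft1 and Elovl1 stay above 0.8 in both, whereas Apoe and Idi1 lose most of their r without mouse 1 and Hmgcs1 moves to -0.87.

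Other genes of the same pathways came from 3 further lists. Of the measured genes, 6 of 7 of sterol synthesis were detected, 20 of 22 of sterol control and transport, and 24 of 27 of fatty acid metabolism. The genes not detected on all arrays were Idi2, Ch25h and Cyp46a1, which act in isoprenoid and oxysterol synthesis, and Scd3, Elovl2 and Elovl3. Of the 50 detected genes, 6 had a positive and 6 a negative r with Fasn at an unadjusted exact permutation p under 0.05, against 14.5% and 10.0% of all detected genes. With Hmgcs1, 2 had a positive and 1 a negative r, against 3.08% and 2.52%, and with Srebf1, 10 had a positive and 8 a negative r, against 20.6% and 12.3%. After adjustment 0 passed with Fasn or Hmgcs1 in that exact permutation test, and 1 passed with Srebf1. Lipa, the lysosomal acid lipase that frees cholesterol from its esters, had r = 0.95 with Fasn, with 169.8, 213.95 and 315.9 as lowest, median and highest signal. Tmem97, a sterol-responsive membrane protein, had r = 0.88 with Fasn, and with Srebf1 it had r = 0.90 (exact permutation adjusted p = 0.0494, n = 8), the only one of the 50 to pass there, and 0.89 without mouse 1. Thrsp, a protein that promotes fat synthesis, had r = 0.76 with Fasn. It had 1805 in mouse 5, the highest mouse for Fasn too, and 214.5 to 464.9 in the others. Its r without mouse 5 is not given here. Ggps1, which makes geranylgeranyl diphosphate, had r = -0.88 with Fasn, and Acsl4, which activates arachidonic acid, had -0.85. Cyb5a, the electron donor of desaturases, had -0.77, and Mylip, the ligase that degrades the LDL receptor, -0.76. Ggps1, Acsl4, Cyb5a and Mylip were each lowest in mouse 1, where Lipa and Tmem97 were highest and Fasn, at 2471, was near its highest. For all of these genes r with Fasn without mouse 1 is not given here. Scd1, the main adult desaturase of many tissues, had r = 0.84 with Hmgcs1 and -0.71 after quantile normalization, and it too is a bright gene, with a mean signal of 12284.

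Among all detected genes the 5 with the highest r with Hmgcs1 were Atp5j at 0.97, Rpl27a, Apoo, Car2 and Srgn at 0.95 each, and all had mean signals of 4945 or more. The 5 highest with Fasn were Mrap and Spout1 at 0.97, Igfbp7 at 0.97, and Nprl2 and Myo9b at 0.96. Their adjusted exact permutation p-values were 0.383 to 0.419 with Hmgcs1 and 0.0874 with Fasn. Mrap, an accessory protein of melanocortin receptors that is also made in fat, had a mean signal of 145.55.

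The dissected tissue can hold other lipid-making cells, and their markers were read alongside. Of the adipocyte markers 7 of 16 were detected, and their summed signal ran from 15367 in mouse 7 to 25062 in mouse 5. Their mean log2 deviation was 1.39 in mouse 5 and between -0.47 and 0.25 in the others. Fabp4, a fatty acid binding protein of fat cells and macrophages, had 5517 in mouse 5 and 88.6 to 914.2 in the others, and Thrsp had 1805 in mouse 5 and 214.5 to 464.9 in the others. The other 9 markers were not detected on all arrays, but all 9 were highest in mouse 5, and 6 of them were above its background there. Adipoq, the adiponectin gene, had 1026 in mouse 5 and 19.6 to 233.9 in the others, and Ucp1, the uncoupling protein of brown fat, had 2378 in mouse 5 and 31.2 to 236.5 in the others. Pck1, Cidec, Pparg and Lipe were above background in mouse 5 too, while Lep, Retn and Aqp7 were not. In all, 14 of the 16 measured markers were highest in mouse 5, and the exceptions were Car3, highest in mouse 3, and Pnpla2, highest in mouse 6. The brightest detected ones were Car3, Fabp4, Cebpa and Pnpla2, of which Car3 is also on the list for fibrocytes. Acaca and Fasn were both highest in mouse 5, and their r with the adipocyte score was 0.67 and 0.55 (exact permutation p = 0.0529 and 0.167, n = 8). The part of fat cells in the values of Acaca and Fasn was not tested, and r between them was 0.83 without mouse 5.

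With the scores of the adipocyte and myelin lists, 0 of the 32 genes had an unadjusted exact permutation p under 0.05 in either direction, against 1.38% and 1.41% of all genes for adipocytes and 1.35% and 0.837% for myelin, in the positive and negative direction. Of the myelin and Schwann cell markers 12 of 16 were detected, with a summed signal of 41514 to 50183, led by S100b, Pmp22, Mbp and Mal, and Mag, Pmp2, Gjb1 and Cldn19 were not detected on all arrays. Of the macrophage markers 16 of 18 were detected, with a summed signal of 11294 in mouse 4 to 15339 in mouse 5, led by Ctss, Lyz2, Csf1r and Tyrobp, and Cx3cr1 and Trem2 were not. With the macrophage score 1 gene, Acaca, had a positive r (0.72, exact permutation p = 0.0485, adjusted p = 0.9999, n = 8), against 1.89% of all genes, and 0 a negative one, against 1.36%.

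**Figure D5:**
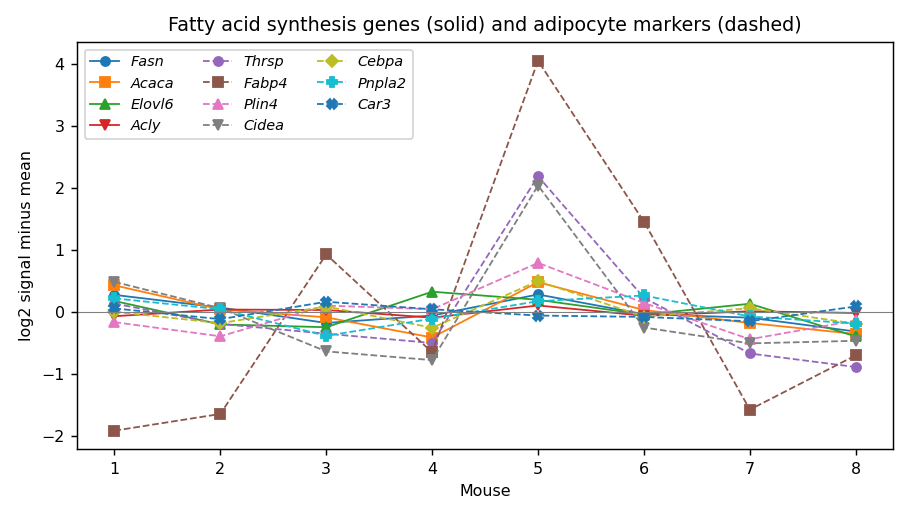
Log2 signal minus the mean over the 8 mice for Fasn, Acaca, Elovl6 and Acly (solid lines) and for the 7 adipocyte markers detected on all arrays (dashed lines), with lines that only join the points of a gene. Of the markers 5 are highest in mouse 5, all but Car3 and Pnpla2, as are Fasn and Acaca, and Fasn and Acaca are also high in mouse 1, where Fabp4 is lowest.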

How the data were processed

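Total RNA of cochlear soft tissue was amplified and biotin-labelled with the Nugen Ovation system, per the labels' protocols, and 1 array was made for each of 8 mice. The deposited values are linear intensities (signals) per probe set, computed by the authors with MAS5 per the submitters' processing notes. No MAS5 version was named there. They were scaled, since their 2% trimmed mean was 500.0 for every mouse. The platform annotation gave 1 gene for 34958 of the 45101 probe sets, several for 932 and none for 9211, and only those with 1 gene were used.

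Each gene was represented by the brightest of its probe sets on average (an _x_at one only in the absence of others), and signals were taken to log2 with a floor of 1. Detected means above the 95th percentile of 168 background probe sets (131 genes) on all 8 arrays. The gap ratio was Dixon's, at its 95% critical value for 8 mice. Correlations were Pearson's r with a two-sided exact permutation test over all 40320 pairings of the mice, Spearman's rho beside it, and Benjamini-Hochberg adjustment over all detected genes, with 0.05 as the threshold. There were 8 such families, for Hmgcs1, Sqle, Fasn, Srebf2, Srebf1 and the mean deviations of the myelin, adipocyte and macrophage marker lists, and 1 for probe set pairs. The genes and lists were chosen with earlier results of these data known. Named are all listed genes, and other pathway genes with an unadjusted p under 0.05 with Hmgcs1 or Fasn (the 8 with the largest r in size) or with 1 mouse apart, the 5 genes with the highest r with Hmgcs1 and with Fasn, and of the marker lists the 4 brightest detected genes and those at background.

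Promoter windows came from RefSeq (GRCm38.p6). The tests were checked on simulated data. Alternatives were quantile normalization, median scaling, log2 of the signal plus 32, other background thresholds and filters, the mean of all detected probe sets, Spearman's rho, each mouse left out and, chosen after seeing the data, the other probe sets of Hmgcs1. Computations used scipy 1.17.1, pandas 2.3.3 and numpy 2.4.6 under Python 3.11.15, and plots matplotlib 3.10.9. The deposited table held 0 other sample columns, and no array was left out.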

Additional observations from a re-analysis of the deposited data

Results flagged for a closer look

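In 9 genes of the pathways 1 mouse lay apart from the other 7, by a gap to its nearest neighbor that was large against the whole range of the 8 mice. Chance flags about 5% of groups in this way, and 12.8% of all detected genes were flagged on these arrays. In 7 of the 9 the mouse was mouse 1, the array with the most deviating genes.

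Sqle, squalene epoxidase, had a gap ratio of 0.5263 because of mouse 8, with 514.9 there and 643.6 to 786.7 in the others. It did not pass under quantile normalization (0.37), median scaling (0.40) or log2 of the signal plus 32 (0.524). Srebf1 had 0.591 because of mouse 1, with 4012 there and 2250 to 2851 in the others, and Apoe had 0.63, with 8089 in mouse 1 and 4278 to 5416 in the others. Without mouse 1 in the set the ratios of Srebf1 and Apoe were 0.30 and 0.33.

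Of the other pathway genes, Acat1, a mitochondrial thiolase, had a ratio of 0.546, with 4465 in mouse 1 and 2874 to 3511 in the others. Mouse 1 was low instead in 4 genes. Lbr, a sterol reductase of the nuclear envelope, had 0.608, with 1402 in mouse 1 and 1948 to 2408 in the others. Mylip had 0.537, with 641.8 there and 839.7 to 1059 in the others. Mbtps2, the protease that releases SREBP in the Golgi membrane, had 0.545, with 447.5 there and 560.0 to 675.2 in the others. Acsl4 had 0.548, with 2516 in mouse 1 and 3540 to 4691 in the others. Without mouse 1 the ratios were 0.34 for Acat1, 0.17 for Lbr, 0.33 for Mylip, 0.40 for Mbtps2 and 0.13 for Acsl4. Thrsp had 0.637 because of mouse 5, with 1805 there and 214.5 to 464.9 in the others.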

How the results depend on the processing

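No paired analysis was possible because the arrays form 1 group. The counts below are of the 32 genes and stand without the shares over all detected genes, so they are not read as results about these genes. Detection of the 32 genes held in every setting but the 99th percentile of background, which left 7 detected, 1 with a mouse apart and 1 adjusted call with Hmgcs1. With a mouse left out or the threshold on at least 4 arrays, detection was fixed in advance while the probe set read stayed the same. The median SD between mice was 0.14 to 0.17 with a mouse left out. Under quantile normalization 5 genes had a mouse apart, 1 pair of probe sets agreed, unadjusted calls with Hmgcs1 were 2 positive and 1 negative, with Fasn 1 negative, with Srebf2 1 positive and with Srebf1 4 negative, and 0 adjusted calls with Srebf1 were left. There r with Hmgcs1 was -0.081 for Scd2, -0.46 for Elovl5, -0.22 for Apod and -0.090 for Clu. Under median scaling calls with Fasn were 3 positive and 2 negative, with Srebf2 2 negative, and with Srebf1 1 negative and 0 adjusted. Adjusted calls with Srebf1 were also 0 with receptor genes alone as background and with the threshold on at least 4 arrays.

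With the mean of all detected probe sets Hmgcs1 had 2 adjusted, 1 positive and 7 negative calls, Fasn 2 negative, Srebf2 4 positive and 1 negative, and Srebf1 0 adjusted and 2 negative, and r of Lss with Srebf1 was -0.012. With Spearman's rho 1 pair of probe sets agreed, and calls were 2 positive with Hmgcs1, 3 with Fasn, and 4 positive and 0 adjusted with Srebf1. With the other probe sets of Hmgcs1, chosen after seeing the data, positive calls were 1 each and negative ones 7 or 8. With 1 of the probe sets, 5 of the negative calls passed adjustment. With these probe sets r of Mvk was -0.18, -0.053 and -0.35, and 0.65, 0.59 and 0.36 without mouse 1. For Apod r was -0.15 with 1 of them. These causes were not tested.

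With a mouse left out, 2 to 4 genes had a mouse apart and 0 to 3 pairs of probe sets agreed (1 without mouse 1 or 7, 0 without mouse 2). Positive and negative unadjusted calls were 3 to 5 and 0 to 3 with Hmgcs1, 0 to 2 and 0 with Sqle, 2 to 10 and 0 to 2 with Fasn, 0 to 2 and 0 to 1 with Srebf2, and 4 to 9 and 0 to 5 with Srebf1 (4 and 5 without mouse 1). Adjusted calls were 0 with each gene, where 7 mice allow fewer pairings. Calls for Sqle, Fasn, Srebf2, Srebf1, adipocytes and macrophages at the 99th percentile were not run, because too few genes were detected.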

Other observations

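Markers of other cells of the dissection were read as well. Of the neuronal markers 11 of 16 were detected, with a mean log2 deviation of 0.60 in mouse 1 and -1.03 in mouse 6, led by Snap25, Eno2, Stmn3 and Nefl, and Syt1, Rbfox3, Prph, Gap43 and Scn9a were not detected on all arrays. Of the marrow and neutrophil markers 4 of 13 were detected, S100a9, S100a8, Lcn2 and Mmp9, with deviations of 1.07 in mouse 3 and -2.11 in mouse 7. Of the bone markers 8 of 10 were detected, led by Dmp1, Col1a2, Col1a1 and Ibsp, with deviations of 0.48 in mouse 6 and -0.58 in mouse 8. All 18 fibrocyte markers were detected, led by Car3, Coch, Slc12a2 and Otos, with deviations of 0.13 in mouse 3 to -0.13 in mouse 7. The part of these cells in the values of the lipid genes was not tested.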
